A study of Oryctolagus cuniculus with 36 samples.

Results

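The NRF2 and glutathione response genes NQO1, GCLC, GCLM, TXNRD1, SRXN1, HMOX1, ME1, GSR and SLC7A11 were followed in rabbit liver RNA. They were chosen by symbol, and all 9 were rows among the 23394 genes of the deposited count table. By its title the study used CRISPR/Cas9 to correct a gene in newborn rabbits that have hereditary tyrosinemia type I, and its RNA sequencing holds 36 liver libraries. Titles place 12 libraries in each of the groups WT, FA and FK, as 3 numbered sets of 4 libraries per group. The labels do not spell out FA and FK, and give no genotype, treatment, age or sex per group. Every library, WT included, carries the same disease tag, a rabbit model of this tyrosinemia, and every liver was trypsinized before TRIzol extraction. The labels leave unsaid whether 1 animal or several gave the 4 libraries of a set, so their counts were summed and a set is called a replicate (n = 3 per group).

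NRF2, encoded by NFE2L2, is a transcription factor that KEAP1 holds for degradation until oxidants or electrophiles modify KEAP1. NRF2 then pairs with small MAF proteins on antioxidant response elements, while BACH1 competes for the same sites. Its targets make and recycle glutathione, reduce thioredoxin, clear quinones and supply NADPH, and in hepatocytes they form a main defence against reactive compounds. The disease is a loss of fumarylacetoacetate hydrolase, encoded by FAH, after which fumarylacetoacetate, an electrophile that reacts with glutathione, builds up in hepatocytes.

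FAH was low in both groups compared with WT. It measured 237, 271 and 218 CPM (counts per M counts after TMM scaling) in WT replicates 1, 2 and 3, 25.7, 24.7 and 19.6 CPM in FA, and 16.4, 11.8 and 14.6 CPM in FK. The fitted log2 change of FAH was -3.37 in FA against WT (edgeR adjusted p = 0.00183) and -4.08 in FK against WT (edgeR adjusted p = 4.66e-04). Libraries held 11.7 to 22.5 M counts and the summed replicates 53.2 to 78.6 M. FK replicates 1 and 2 stood apart from all other replicates. Over genes, log2 CPM of FK replicate 3 correlated at r = 0.854 and 0.821 with FK replicates 1 and 2, and at 0.958 to 0.970 with the 3 FA replicates. The hepatocyte marker list (11 of 12 genes in the table, none at 0) summed to 206771 to 270489 CPM in WT, 223635 to 281043 in FA and 259621, 167497 and 249552 in FK replicates 1, 2 and 3. Most of that sum is ALB. In FK against WT 5 of the 11 were above WT with no overlap (13.9% of all genes tested) and 3 below (13.4%). Among them were APOA1 (28.0, 34.2 and 49.2 CPM in WT, 2716, 2564 and 74.8 in FK) and TTR (3741, 4039 and 4440 CPM in WT, 838, 1136 and 3293 in FK), both singled out after their values were seen. FK replicate 3 resembled FA over all genes, but its FAH level of 14.6 CPM lay among the other FK replicates and below every FA replicate. Whether a set was labelled other than intended was not tested. Results that rest on FK are therefore given with and without FK replicate 3. In whole liver, a lower share of a cell type and less RNA of a gene per cell cannot be told apart.

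**Figure D1:**
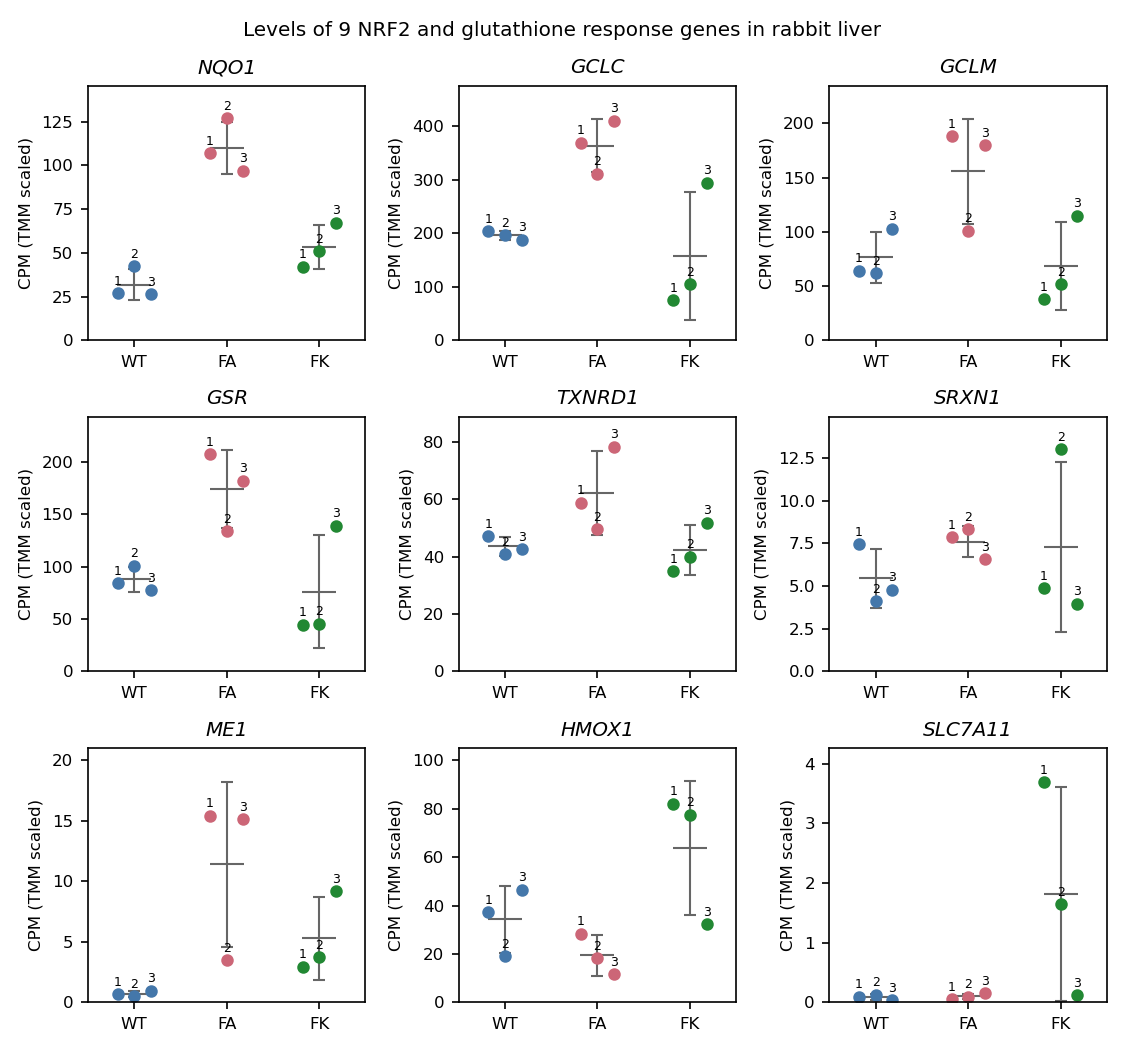
Level of each gene (CPM, TMM scaled, linear axes from 0) in the WT, FA and FK replicates; points are replicates with their number, the long bar is the mean and the error bar 1 SD (n = 3). NQO1, GCLC, TXNRD1, GSR and ME1 were above every WT replicate in all 3 FA replicates, whereas FK replicates 1 and 2 lay below every WT replicate for GCLC, GCLM, TXNRD1 and GSR.

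GCLC encodes the catalytic subunit of glutamate-cysteine ligase, the rate-limiting enzyme of glutathione synthesis. GCLC measured 204, 196 and 188 CPM in WT replicates 1, 2 and 3, 369, 311 and 410 CPM in FA, and 75.6, 105 and 294 CPM in FK. Every FA replicate exceeded every WT and every FK replicate, and FK was divided, with replicates 1 and 2 below the WT range and replicate 3 above it. The fitted log2 change was 0.89 in FA against WT (SE 0.46, 95% interval -0.15 to 1.92, edgeR adjusted p = 0.554) and -0.31 in FK against WT (SE 0.45, interval -1.34 to 0.72, edgeR adjusted p = 0.7). FA against FK gave 1.20 (SE 0.46, edgeR adjusted p = 0.182). When FK replicate 3 was left out, GCLC fell by 1.14 in FK against WT (edgeR adjusted p = 0.00605) and was 2.02 higher in FA than in FK (edgeR adjusted p = 4.00e-04).

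GCLM encodes the modifier subunit that makes the same ligase more efficient. GCLM measured 64.3, 61.7 and 103 CPM in WT, 188, 101 and 180 CPM in FA, and 38.3, 52.0 and 115 CPM in FK. FA replicate 2 lay just under WT replicate 3, so the FA and WT ranges overlapped, while FK replicates 1 and 2 were again below WT and replicate 3 above it. The log2 change was 1.03 in FA against WT (SE 0.44, interval 0.03 to 2.03, edgeR adjusted p = 0.477), -0.16 in FK against WT (SE 0.44, edgeR adjusted p = 0.842) and 1.19 in FA against FK (SE 0.44, edgeR adjusted p = 0.171). The FK change of GCLM was -0.78 without FK replicate 3 (edgeR adjusted p = 0.109), and FA exceeded FK by 1.81 (edgeR adjusted p = 0.00457).

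GSR encodes glutathione reductase, which returns oxidised glutathione to its reduced form with NADPH. GSR measured 84.3, 101 and 77.7 CPM in WT, 207, 134 and 182 CPM in FA, and 44.5, 45.7 and 139 CPM in FK. All FA replicates were above all WT replicates, and FK replicate 3 fell within the FA range while the other FK replicates lay below WT. The log2 change was 0.99 in FA against WT (SE 0.44, interval 0.00 to 1.98, edgeR adjusted p = 0.492), -0.20 in FK against WT (SE 0.43, edgeR adjusted p = 0.799) and 1.19 in FA against FK (SE 0.44, edgeR adjusted p = 0.17). Leaving out FK replicate 3 turned the FK value into a call, a fall by 0.98 (edgeR adjusted p = 0.0134), and FA then exceeded FK by 1.97 (edgeR adjusted p = 5.28e-04).

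SLC7A11 encodes the light chain of the cystine and glutamate exchanger, the entry point of cystine for glutathione synthesis. SLC7A11 measured 0.0958, 0.129 and 0.0324 CPM in WT, 0.0561, 0.0972 and 0.151 CPM in FA, and 3.69, 1.65 and 0.118 CPM in FK. Only 16 counts in all stood behind the WT replicates and 19 behind the FA replicates, against 347 in FK, nearly all from FK replicates 1 and 2. FK replicate 3, with 7 counts, lay inside the WT range. SLC7A11 did not pass the filter on low counts and was not tested with all 9 replicates. Without FK replicate 3 it passed that filter only through the FK replicates in which it is high, so no test from that fit is given for it. With all 9 replicates, edgeR without a filter gave a log2 change of 4.37 in FK against WT (edgeR adjusted p = 0.0569). DESeq2, run without that filter, gave 4.39. DESeq2 leaves genes of low mean count out of its adjustment, and the mean of SLC7A11 rests on FK replicates 1 and 2. Its DESeq2 calls are therefore not read as a result.

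TXNRD1 encodes cytosolic thioredoxin reductase, which keeps thioredoxin reduced. TXNRD1 measured 47.2, 40.8 and 42.7 CPM in WT, 58.8, 49.7 and 78.4 CPM in FA, and 34.9, 40.0 and 51.9 CPM in FK. The lowest FA replicate was above the highest WT replicate but below FK replicate 3, and the FK and WT ranges overlapped. The log2 change was 0.52 in FA against WT (SE 0.23, interval 0.01 to 1.03, edgeR adjusted p = 0.49), -0.04 in FK against WT (SE 0.22, interval -0.55 to 0.47, edgeR adjusted p = 0.922) and 0.56 in FA against FK (SE 0.23, edgeR adjusted p = 0.198). FA exceeded FK by 0.75 without FK replicate 3 (edgeR adjusted p = 0.029).

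SRXN1 encodes sulfiredoxin, which repairs over-oxidised peroxiredoxins. SRXN1 measured 7.43, 4.11 and 4.79 CPM in WT, 7.86, 8.33 and 6.58 CPM in FA, and 4.87, 13.0 and 3.97 CPM in FK. FK replicate 2 was the highest of the 9 and FK replicate 3 the lowest, and all groups overlapped. The log2 change was 0.48 in FA against WT (SE 0.44, interval -0.53 to 1.48, edgeR adjusted p = 0.781), 0.42 in FK against WT (SE 0.44, interval -0.58 to 1.43, edgeR adjusted p = 0.579) and 0.06 in FA against FK (SE 0.44, edgeR adjusted p = 0.952). Of the 8 members tested with all 9 replicates, SRXN1 alone had no call in any of the 3 comparisons when FK replicate 3 was left out.

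NQO1 encodes a quinone reductase that is among the most used readouts of NRF2 activity. NQO1 measured 27.0, 42.3 and 26.3 CPM in WT (31.9 ± 9.03, SD, n = 3), 107, 127 and 97.0 CPM in FA (110 ± 15, SD, n = 3), and 42.2, 50.9 and 67.3 CPM in FK (53.5 ± 12.7, SD, n = 3). The order was FA above FK above WT, FA shared no value with either other group, and FK touched WT only where FK replicate 1 met WT replicate 2. The mean in FA was 3.46-fold that in WT, and the log2 change was 1.79 (SE 0.27, interval 1.19 to 2.39, edgeR adjusted p = 0.0514), just short of the threshold of 0.05. FK against WT gave 0.75 (SE 0.26, interval 0.16 to 1.34, edgeR adjusted p = 0.111), and FA against FK 1.05 (SE 0.26, interval 0.45 to 1.64, edgeR adjusted p = 0.115). NQO1 passed without FK replicate 3 in FA against WT with the same change of 1.79 (edgeR adjusted p = 0.00954) and in FA against FK with 1.26 (edgeR adjusted p = 0.00686). In the RefSeq gene table (assembly mOryCun1.1) the span of NQO1 overlaps NFAT5 and an unnamed locus, and that of TXNRD1 another unnamed locus. Because the labels do not say whether strand was kept, the levels of NQO1 and TXNRD1 could include reads of those neighbours.

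ME1 encodes cytosolic malic enzyme, which makes NADPH from malate. ME1 measured 0.671, 0.499 and 0.972 CPM in WT, 15.4, 3.50 and 15.1 CPM in FA, and 2.94, 3.72 and 9.17 CPM in FK. ME1 was low in WT, at 31 to 60 counts per replicate, and higher in all 6 FA and FK replicates, with FA replicate 2 nearer to FK than to the other FA replicates. The FK mean was 7.39-fold and the FA mean 15.9-fold the WT mean. ME1 rose in FK against WT, by 2.88 on the log2 scale (SE 0.66, interval 1.40 to 4.37, edgeR adjusted p = 0.0473). In FA against WT the change was 3.99 (SE 0.69, interval 2.43 to 5.54, edgeR adjusted p = 0.0808). Before adjustment over all genes, of which far fewer passed in FA, the edgeR p was smaller in FA against WT (2.65e-04) than in FK against WT (0.00179). FA against FK gave 1.11 (SE 0.61, interval -0.27 to 2.48, edgeR adjusted p = 0.319).

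HMOX1 encodes inducible heme oxygenase, which breaks heme into biliverdin, iron and carbon monoxide, and BACH1 holds the gene down when heme is scarce. HMOX1 measured 37.2, 19.2 and 46.5 CPM in WT, 28.4, 18.4 and 11.6 CPM in FA, and 82.1, 77.6 and 32.2 CPM in FK. FK replicates 1 and 2 were the highest of the 9, FK replicate 3 was in the WT range, and FA was the lowest group and shared no value with FK. The log2 change was -0.82 in FA against WT (SE 0.47, interval -1.88 to 0.25, edgeR adjusted p = 0.601), 0.90 in FK against WT (SE 0.47, interval -0.16 to 1.96, edgeR adjusted p = 0.252) and -1.71 in FA against FK (SE 0.48, interval -2.80 to -0.63, edgeR adjusted p = 0.116). HMOX1 rose by 1.20 in FK against WT without FK replicate 3 (edgeR adjusted p = 0.0467) and was then lower in FA than in FK (log2 change -2.01, edgeR adjusted p = 0.00528).

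FA against WT asks how liver of the group labelled FA differed from WT in this response. Of the 8 tested members, 7 had a fitted change above 0, from 0.48 for SRXN1 to 3.99 for ME1, and HMOX1 alone had one below 0. NQO1, GCLC, TXNRD1, ME1 and GSR, 5 of 8, were above WT with no overlap between replicates, against 12.5% of all genes tested, and 0 were below, against 12.4%. None passed at an edgeR adjusted p under 0.05, where 0.167% of the 14939 genes did. At an unadjusted p under 0.05, 5 of 8 members passed (10.2% of genes). DESeq2 called 2 members, NQO1 and ME1 (2.09% of genes), and limma-voom on all 36 libraries, with sets as random blocks, called 4, NQO1, GCLM, ME1 and GSR (3.44% of genes). NQO1 and ME1 were also called when only FA and WT were fitted (edgeR adjusted p = 0.0126 and 0.0199, 1.63% of genes called) and without FK replicate 3 (edgeR adjusted p = 0.00954 and 0.0126, 1.60% of genes called). Without FA replicate 2, where ME1 was lowest, ME1 passed on its own (log2 change 4.42, edgeR adjusted p = 0.0497).

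FK against WT asks the same of the group labelled FK. ME1 was the member that rose, 1 of 8 tested, where 4.77% of genes were called in either direction, 3.04% higher and 1.73% lower. At an unadjusted p under 0.05, 2 members passed, NQO1 and ME1 (26.9% of genes). With no overlap between replicates, ME1 alone was above WT (13.9% of genes) and 0 members were below (13.4%). FA and FK are set against the same WT replicates, so their changes are not independent. The call of ME1 held in DESeq2 (DESeq2 adjusted p = 1.87e-04). It also held in edgeR with RLE scaling (edgeR adjusted p = 0.0484), without a filter on low counts (0.0468) and with at least 1 CPM in 3 replicates (0.0444). The call of ME1 was lost in limma-voom with sets as random blocks (limma-voom adjusted p = 0.0666), where NQO1 (0.0375) and HMOX1 (0.0285) were called instead. No share of all genes is given for DESeq2 and limma-voom in FK against WT, so these calls have no general rate beside them. The call of ME1 was also lost in edgeR with only FK and WT fitted (edgeR adjusted p = 0.0933) and with library 1 of each set alone (0.0856). Among left-out replicates, it was lost without WT replicate 1, 2 or 3 (edgeR adjusted p = 0.17, 0.164 and 0.132), FA replicate 1 or 3 (0.0791 and 0.0794) or FK replicate 1 or 2 (0.116 and 0.0899). It held without FA replicate 2 (0.0496) and without FK replicate 3 (0.0159), while the log2 change stayed between 2.20 and 3.17.

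FK did not behave as 1 group for GCLC, GCLM, GSR and TXNRD1. All 4 had FK replicates 1 and 2 below every WT replicate and FK replicate 3 above every WT replicate. This pattern was noticed after the values were seen and was held by 7.35% of the genes tested. For TXNRD1 the margin was small, with FK replicate 2 at 40.0 CPM and WT replicate 2 at 40.8. With FK replicate 3 left out, 4 of the 8 members that pass the filter in both fits were called against WT, where 34.9% of genes were. HMOX1 and ME1 rose (18.7% of genes) and GCLC and GSR fell (16.2% of genes). With FK as replicate 3 alone, the fitted change turned to 0.55 for GCLC, 0.55 for GCLM and 0.63 for GSR. ME1 was above every WT replicate in all 3 FK replicates, whereas HMOX1 and SLC7A11 were so only in FK replicates 1 and 2.

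**Figure D2:**
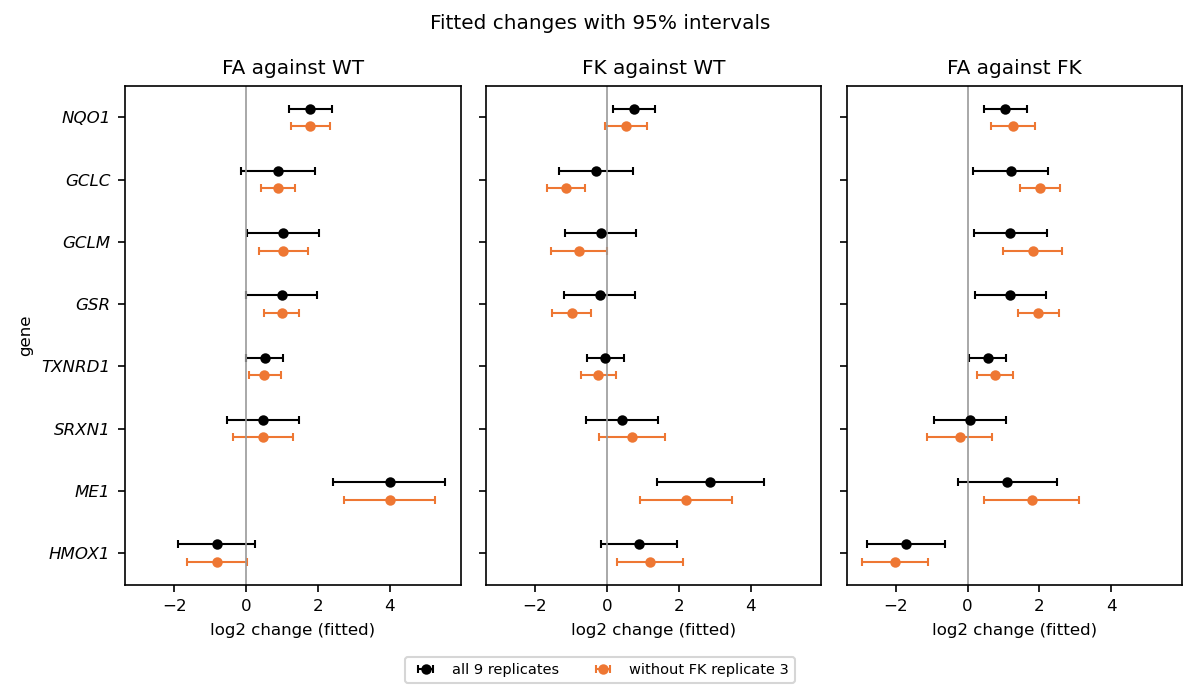
Fitted log2 change of each gene in the 3 comparisons with its 95% interval, from all 9 replicates (black) and without FK replicate 3 (orange); SLC7A11 is not plotted because it did not pass the filter on low counts. The FA against WT values barely moved while their intervals narrowed, and in FK against WT GCLC went from -0.31 to -1.14 and GSR from -0.20 to -0.98.

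FA against FK compares the groups that both had low FAH. NQO1 and GCLC were higher in FA with no overlap (2 of 8 tested, 8.24% of genes) and HMOX1 was lower with no overlap (1 of 8, 8.99% of genes). No member passed in edgeR, and neither did any other gene (0% of 14939). At an unadjusted p under 0.05, 6 of 8 passed (21.9% of genes). DESeq2 called 3, NQO1 higher and HMOX1 and SLC7A11 lower (11.1% of genes). The DESeq2 call of SLC7A11 is not read as a result, since nearly all its counts came from FK replicates 1 and 2. By limma-voom 5 were called, NQO1, GCLC, GCLM, HMOX1 and GSR (17.0% of genes). Leaving out FK replicate 3, 7 of the 8 members that pass the filter in both fits were called in edgeR, where 34.5% of genes were. NQO1, GCLC, GCLM, GSR, TXNRD1 and ME1 were higher in FA (16.4% of genes), and HMOX1 was lower (18.1% of genes), at a log2 change of -2.01.

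FK replicates 1 and 2 also carried blood-cell transcripts. Erythroid markers (13 of 16 in the table, none at 0) summed to 43.0 to 112 CPM in WT and 117 to 266 in FA, and to 916, 2401 and 158 CPM in FK replicates 1, 2 and 3. All 13 were above every WT replicate in FK replicates 1 and 2, a rule on chosen replicates for which no share of all genes is given. By the same rule 7 of 11 hepatocyte markers and 4 of 12 Kupffer cell and macrophage markers were above WT. Neutrophil markers (10 of 12 in the table, none at 0) summed to 16.7 to 28.3 CPM in WT, 19.4 to 41.7 in FA, and 1199, 2067 and 28.1 in FK. Cell division genes (14 of 14, none at 0) summed to 49.4 to 96.4 CPM in WT, 47.4 to 59.2 in FA, and 364, 839 and 51.6 in FK. So the replicates in which GCLC and GSR were lowest and HMOX1 and SLC7A11 highest were those with most marker RNA of these lists. Kupffer cell and macrophage markers (12 of 14 in the table, CLEC4F at 0 in FA) summed to 673 to 904 CPM in WT, 414 to 504 in FA, and 1099, 614 and 688 in FK. Stellate cell and fibroblast markers (10 of 10, none at 0) summed to 251 to 321 CPM in WT, 147 to 226 in FA and 197 to 290 in FK, and endothelial markers (9 of 10, none at 0) to 298 to 352 in WT, 170 to 246 in FA and 246 to 383 in FK. So in FA, where NQO1, GCLC, TXNRD1, ME1 and GSR were above WT, these 3 non-hepatocyte lists were below WT in every replicate. With no overlap, 6 of 11, 6 of 10 and 4 of 9 tested markers were below WT, against 12.4% of all genes tested. Bile duct cell markers (9 of 9, none at 0) summed to 81.8 to 179 CPM in WT, 91.5 to 149 in FA and 53.5 to 182 in FK. T and B lymphocyte markers (10 of 11, none at 0) summed to 10.8 to 12.5 CPM in WT, 5.88 to 8.70 in FA and 3.70 to 5.93 in FK. The part of these lists in the members' values was not tested.

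**Figure D3:**
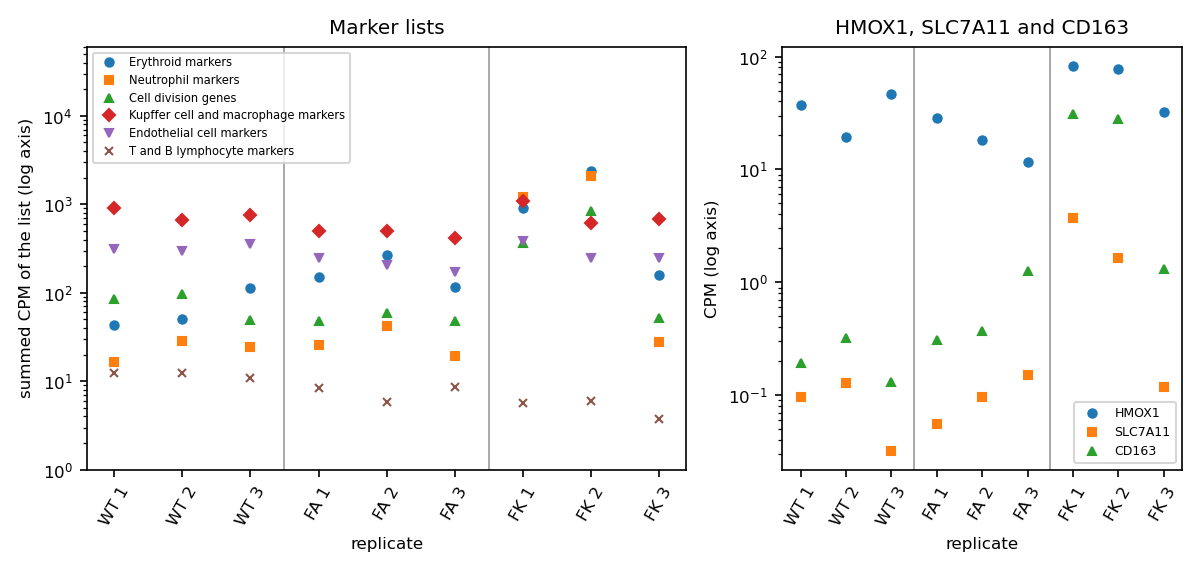
Summed CPM of 6 marker lists (left) and CPM of HMOX1, SLC7A11 and CD163 (right) in each replicate, both on log axes, with vertical lines between groups. Erythroid, neutrophil and cell division sums, SLC7A11 and CD163 were highest in FK replicates 1 and 2. The Kupffer cell and macrophage sum did not follow CD163, at 1099, 614 and 688 CPM in FK and 673 to 904 in WT. FK replicate 3 lay in the WT range for the neutrophil and cell division sums and SLC7A11. Its erythroid sum (158 CPM) was above WT and in the FA range, and its CD163 (1.30 CPM) was above every WT and FA replicate.

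Of the regulators of NRF2, NFE2L2, KEAP1, BACH1 and SQSTM1 did not pass the test in any comparison with all 9 replicates. NFE2L2, which encodes NRF2 itself, measured 36.3, 46.5 and 36.9 CPM in WT, 67.8, 50.2 and 57.0 CPM in FA, and 65.1, 46.3 and 59.7 CPM in FK, so that FA was above WT with no overlap. Its log2 change was 0.55 in FA against WT (edgeR adjusted p = 0.417) and 0.51 in FK against WT (edgeR adjusted p = 0.151). KEAP1, the NRF2 inhibitor, had log2 changes of -0.22 and -0.44 (edgeR adjusted p = 0.756 and 0.188), and BACH1, the repressor of HMOX1, 0.50 and 0.19 (edgeR adjusted p = 0.649 and 0.746). SQSTM1, a selective autophagy receptor that binds KEAP1, measured 249, 285 and 245 CPM in WT, 390, 342 and 339 CPM in FA, and 155, 142 and 241 CPM in FK, and thus shared no value between any of the groups. Its log2 change was 0.46 in FA and -0.53 in FK (edgeR adjusted p = 0.585 and 0.218), and without FK replicate 3 it fell by 0.83 in FK (edgeR adjusted p = 0.0135). MAFG had no row matched by symbol. Of the 10 regulators tested, edgeR called 1 in FK against WT (4.77% of all genes), MAFF, a small MAF partner of NRF2 and BACH1. It called 0 in FA against WT (0.167% of all genes) and 0 in FA against FK (0%). In FA against WT 2 passed at an unadjusted p under 0.05, DESeq2 called 0 and limma-voom 1 (10.2%, 2.09% and 3.44% of all genes). In FA against FK these counts were 3, 2 and 1 (21.9%, 11.1% and 17.0%). MAFF measured 0.0319, 0.0322 and 0.0648 CPM in WT, 0.154, 0.308 and 0.151 in FA, and 1.02, 1.47 and 0.169 in FK. WT held 8 counts in all, so MAFF passed the filter on low counts only through groups in which it is higher. Its call is therefore not read as a result. FK replicate 3 lay in the FA range, below FK replicates 1 and 2.

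Of 36 other NRF2 targets listed, 30 were in the table and 29 were tested, and edgeR called 0 in each comparison. At an unadjusted p under 0.05, 3 of the 29 passed in FA against WT (10.2% of all genes), 5 in FK against WT (26.9%) and 11 in FA against FK (21.9%). DESeq2 called 1, 3 and 3, and limma-voom 3, 10 and 14. Over all genes, DESeq2 called 2.09% in FA against WT and 11.1% in FA against FK, and limma-voom 3.44% and 17.0%. No such share is given for FK against WT. In FA against WT 9 of the 29 were above WT with no overlap (12.5% of all genes) and 3 below (12.4%). The median change of the 29 was 0.27, against 0.00 over all genes. The median was -0.13 in FK against WT (0.05 over all genes) and 0.94 in FA against FK (-0.02 over all genes). With FK replicate 3 left out, edgeR called 1 higher (AKR1B10) and 2 lower in FA against WT (1.60% of all genes in either direction). It then called 3 higher and 11 lower in FK against WT (18.7% and 16.2% of all genes), and 17 higher and 4 lower in FA against FK (16.4% and 18.1%). The next 3 genes were singled out after their values were seen. AKR1B10, an aldo-keto reductase, measured 29.0, 35.5 and 75.8 CPM in WT, 245, 117 and 236 in FA, and 60.2, 42.3 and 133 in FK. PTGR1, which reduces reactive alkenals, measured 162, 218 and 401 CPM in WT, 991, 518 and 740 in FA, and 21.4, 41.4 and 382 in FK, with FK replicates 1 and 2 below WT as for GCLC. CBR1, a carbonyl reductase, was lower in FA, at 427, 483 and 432 CPM in WT and 202, 206 and 238 in FA, and was at 3.87, 3.08 and 113 in FK.

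**Figure D4:**
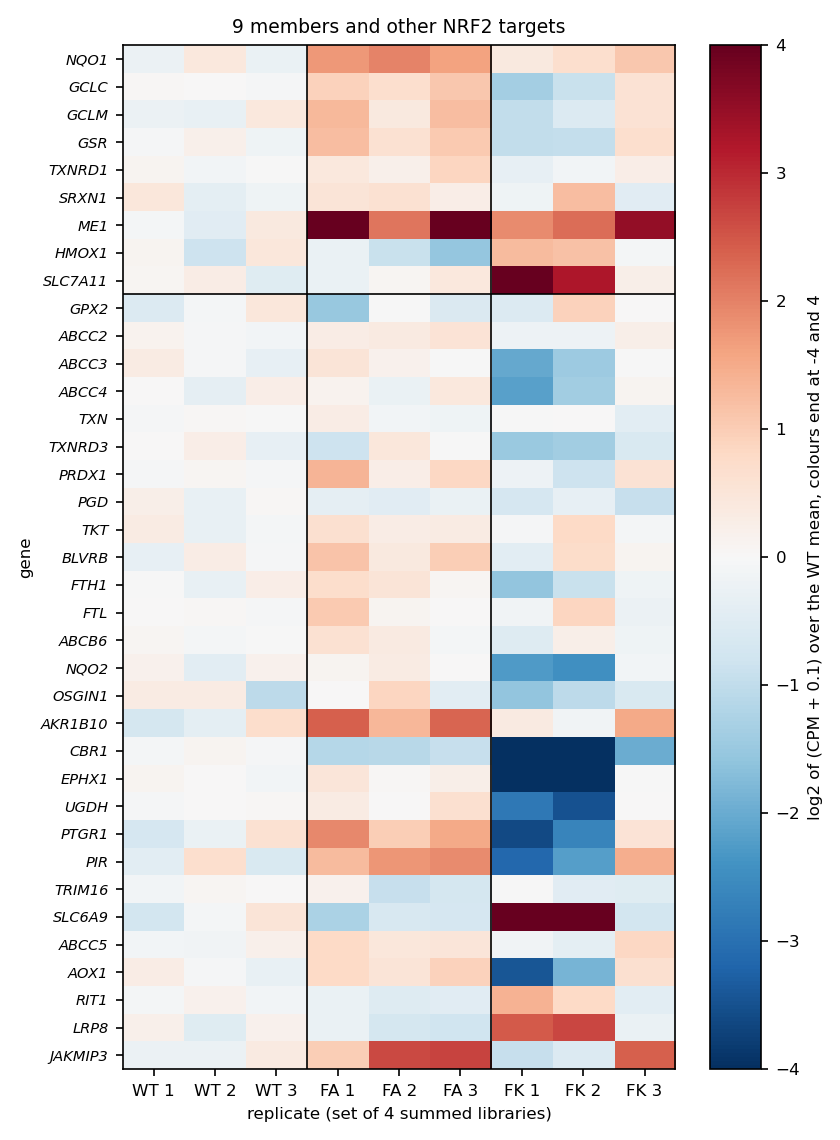
Colour gives log2 of CPM + 0.1 over the WT mean for the 9 members (above the line) and other tested NRF2 targets (below it) in the 9 replicates, with colours ending at -4 and 4. FA replicates are mostly warm for NQO1, GCLC, GCLM, GSR, ME1, AKR1B10, PTGR1 and PIR, and FK replicates 1 and 2 are dark blue for CBR1, EPHX1, UGDH and PTGR1, while FK replicate 3 is near WT for EPHX1 and UGDH.

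In glutathione synthesis and turnover, 14 further genes were tested, and edgeR called 1 in FK against WT (4.77% of all genes). The 1 called gene was GGCT, the gamma-glutamylcyclotransferase of glutathione breakdown, which fell by 0.79 in FK against WT (26.8, 26.0 and 24.8 CPM in WT, 12.1, 17.8 and 15.1 in FK, edgeR adjusted p = 0.0475) and measured 17.1, 20.2 and 17.2 CPM in FA. In FK against WT 4 of the 14 passed at an unadjusted p under 0.05 (26.9% of all genes). DESeq2 called 4 and limma-voom 2, with no share of all genes given beside them. Without FK replicate 3, edgeR called 4 higher (CHAC1, CHAC2, SLC1A4 and SLC1A5) and 2 lower (GGCT and LAP3), against 18.7% and 16.2% of all genes. These were singled out after their values were seen, and CHAC1, which degrades glutathione, measured 0.144, 0.0805 and 0.0648 CPM in WT (18 counts in all) and 2.06, 4.44 and 0.118 in FK. The list's median change was -0.15 in FA and 0.31 in FK against WT (0.00 and 0.05 over all genes). SLC3A2, the heavy chain that partners SLC7A11, did not share its pattern. It measured 89.1, 63.9 and 67.9 CPM in WT, 32.5, 69.8 and 61.7 in FA, and 60.7, 99.0 and 38.8 in FK. Of 23 tested genes of glutathione use and reduction other than GSR, edgeR called 0 in each comparison with all 9 replicates. At an unadjusted p under 0.05, 1 passed in FA against WT (10.2% of all genes), 6 in FK against WT (26.9%) and 10 in FA against FK (21.9%). DESeq2 called 0, 6 and 4 of the 23, and limma-voom 0, 10 and 13. Over all genes, DESeq2 called 2.09% in FA against WT and 11.1% in FA against FK, and limma-voom 3.44% and 17.0%. No such share is given for FK against WT, so the counts there have no general rate beside them. Their median change was 0.11 in FA and -0.28 in FK against WT. GSTO1, a glutathione transferase singled out after its values were seen, was the 1 gene of that list called in FA against WT without FK replicate 3, at a log2 change of 1.71 (edgeR adjusted p = 0.048, 484, 632 and 691 CPM in WT, 2805, 1183 and 1921 in FA).

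The thioredoxin system and other antioxidant enzymes, beside TXNRD1 and SRXN1, had 0 of 18 called by edgeR in each comparison, with medians of -0.01 in FA and -0.46 in FK against WT. At an unadjusted p under 0.05, 1 passed in FA against WT (10.2% of all genes), 5 in FK against WT (26.9%) and 7 in FA against FK (21.9%). DESeq2 called 0, 3 and 0 of the 18, and limma-voom 0, 9 and 9. Over all genes, DESeq2 called 2.09% in FA against WT and 11.1% in FA against FK, and limma-voom 3.44% and 17.0%. No such share is given for FK against WT. With FK replicate 3 left out, edgeR called 9 of 24 genes of glutathione use and 8 of these 18 lower in FK against WT (16.2% of all genes), and 4 and 1 higher (18.7% of all genes). MGST2, which passed the filter only in that fit, was not among the calls (edgeR adjusted p = 0.0736). NADPH supply beside ME1 had 1 of 9 called in FK against WT (4.77% of all genes), MTHFD2, a mitochondrial folate enzyme, at 1.58, 1.55 and 1.83 CPM in WT and 52.6, 104 and 1.59 CPM in FK. Its rise of 4.99 (edgeR adjusted p = 0.0471) came from FK replicates 1 and 2, since FK replicate 3 lay in the WT range.

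The next list holds 13 genes of transsulfuration, the liver's own route to cysteine, and of methionine and sulfur steps around it. Of these, edgeR called 1 higher and 2 lower in FK against WT (3.04% and 1.73% of all genes). The gene called higher, CTH, makes cysteine, and the 2 called lower, GNMT and ETHE1, do not. It called 0 in FA against WT (0.167% of all genes). There 2 passed at an unadjusted p under 0.05, 2 by DESeq2 and 2 by limma-voom (10.2%, 2.09% and 3.44% of all genes). CTH, which releases cysteine from cystathionine, measured 69.7, 48.0 and 68.3 CPM in WT, 112, 89.2 and 199 in FA, and 937, 639 and 162 in FK, and rose by 3.23 in FK (edgeR adjusted p = 0.0368). Every FA and FK replicate exceeded every WT replicate for CTH. GNMT, the methyltransferase that uses up S-adenosylmethionine, fell by 1.99 in FK (1960, 2099 and 2180 CPM in WT, 435, 621 and 516 in FK, edgeR adjusted p = 0.0241), with every FK and FA replicate below every WT replicate. ETHE1, a mitochondrial persulfide dioxygenase, fell by 1.44 in FK (48.4, 23.7 and 28.3 CPM in WT, 8.68, 12.4 and 15.8 in FK, edgeR adjusted p = 0.0468). SLC7A11 also belongs to the targets of the amino acid response factor ATF4, of which edgeR called 0 of 13 others in FK against WT with all 9 replicates. At an unadjusted p under 0.05, 6 of these passed (26.9% of all genes). DESeq2 called 5 and limma-voom 3, with no share of all genes given beside them. Without FK replicate 3, 14 passed the filter, more than the 13 tested with all 9 replicates, and edgeR called 7 higher and 1 lower (18.7% and 16.2% of all genes). A gene that enters only in that fit may pass through FK replicates 1 and 2, so these counts are a description.

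**Figure D5:**
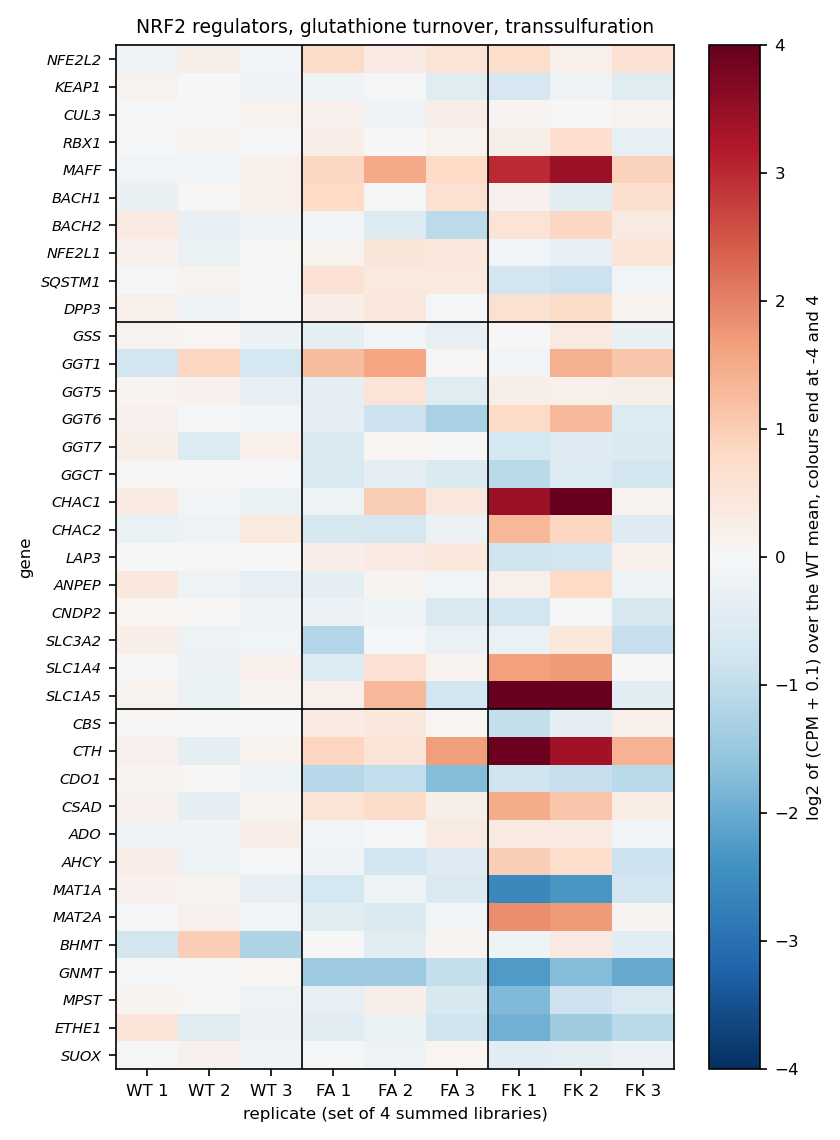
Colour gives log2 of CPM + 0.1 over the WT mean in the 9 replicates, with colours ending at -4 and 4. Lines separate NRF2 regulators, glutathione synthesis and turnover genes, and genes of transsulfuration with methionine and sulfur steps around it. MAFF, CHAC1, SLC1A5 and CTH are red in FK replicates 1 and 2, GNMT is blue in all FA and FK replicates, and NFE2L2 and KEAP1 stay pale.

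Heme and iron genes other than HMOX1 gave 1 called higher and 1 lower of 12 in FK against WT (3.04% and 1.73% of all genes). CD163, the hemoglobin receptor of macrophages, measured 0.192, 0.322 and 0.130 CPM in WT, 0.309, 0.373 and 1.25 in FA, and 31.0, 27.9 and 1.30 in FK, and rose by 6.54 in FK (edgeR adjusted p = 0.0355). HMOX1 and CD163 were thus both highest in FK replicates 1 and 2. The Kupffer cell and macrophage markers, to which CD163 belongs, did not rise as a list. Their sum was 1099, 614 and 688 CPM in FK and 673 to 904 in WT, and their median change was -0.11 (0.05 over all genes). CD163 was the only 1 of 11 tested above WT with no overlap (13.9% of all genes), and 2 were below (13.4%). HMOX2, the constitutive heme oxygenase, fell by 0.84 in FK (64.1, 75.0 and 55.8 CPM in WT, 36.5, 33.2 and 39.5 in FK, edgeR adjusted p = 0.0408). Unlike HMOX1, HMOX2 was below WT in all 3 FK replicates.

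The members were compared with each other and with 6719 other genes of at least 10 CPM by Pearson's r of log2 CPM over the 9 replicates, which share groups and depth, as a description. GCLC and GSR were the most alike pair of the 8 tested members (r = 0.972, and 0.956 without FK replicates 1 and 2), and GCLC with GCLM gave 0.917. HMOX1 with GCLC and GSR gave r = -0.856 and -0.840 (-0.603 and -0.572 without FK replicates 1 and 2). SRXN1 with GCLC and GSR gave -0.046 and -0.120 (0.455 and 0.357 without FK replicates 1 and 2). ME1 with GCLC gave 0.447 over the 9 replicates and 0.950 without FK replicates 1 and 2, which set these genes apart. The nearest genes to NQO1 were CSRP2 (r = 0.954) and SPRYD4 (0.931), and to GCLC MSRA, a methionine sulfoxide reductase (0.981), and IRF2 (0.981). GCLM was nearest to RMND5A (0.970) and MBNL1 (0.960), GSR to PCLO (0.992) and EPB41L5 (0.989), and TXNRD1 to TRAF6 (0.955) and IFIT3 (0.949). SRXN1 was nearest to TMUB2 (0.956) and TKT, transketolase (0.934), and ME1 to DECR1, a fatty acid oxidation enzyme (0.984), and POLR2D (0.971). HMOX1 was nearest to LYN, a tyrosine kinase of blood cells (0.962), and KCTD12 (0.961). For SLC7A11 the nearest were MARS2 (0.980) and ERICH5 (0.979), but without FK replicates 1 and 2 these dropped to 0.696 and 0.682, so that likeness rests on those replicates.

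Within most sets, the 4 libraries agreed closely for the expressed members. The coefficient of variation of CPM over the 4 libraries had a median over sets of 6.24% for GSR, 6.53% for TXNRD1, 6.92% for NQO1, 8.46% for GCLC, 8.64% for HMOX1 and 8.86% for GCLM. It was 18% for SRXN1, 21.8% for ME1 and 121% for SLC7A11, the members with the fewest counts. The highest value of any set was 11% for GSR, 15% for GCLM, 15.4% for TXNRD1 and HMOX1, 19.6% for NQO1 and 19.8% for GCLC. For NQO1 and GCLC that set was FK replicate 3, with libraries from 51.0 to 78.9 CPM and from 213 to 351 CPM. The 4 libraries may be repeats of 1 animal, so this is no measure of the spread between animals.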

How the data were processed

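Liver RNA of 36 libraries was analysed from 1 table of estimated counts per gene, whole numbers as deposited by the authors. Salmon 0.14.1 is named in the submitters' processing notes, but its role, the genome build and the annotation are not stated there. The TruSeq RNA kit was used for libraries, per the labels' protocols. The 4 libraries of each titled set were summed, and all 9 sums entered 1 quasi-likelihood fit (edgeR 4.0.16 in R 4.3.3) after filterByExpr and TMM scaling, with p-values adjusted by Benjamini-Hochberg over 14939 genes. A gene is called, and said to rise or fall, at an adjusted p under 0.05. CPM are TMM scaled, changes are fitted log2 differences and intervals are 95%. The biological coefficient of variation was 45.2%. DESeq2 1.42.0 and limma 3.58.1 were alternatives, and scripts were tested on simulated data. Shares over all genes are not given for these alternatives in FK against WT, so their counts there have no general rate beside them. P-values measure only the spread between sets, which may be technical. All groups share 1 estimate of the spread, so the spread within FK enters every test.

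Members and lists were chosen with earlier results of these data known. Named genes were the 9 members, FAH, up to 3 called genes with the smallest p per pathway list and comparison, NFE2L2, KEAP1, MAFG, BACH1 and SQSTM1, and the 2 genes most alike to each member among those of at least 10 CPM. Others are said to be singled out after their values were seen. Of 264 listed genes 235 matched the table. Values of 1 listed gene are not reported here. RefSeq symbols (assembly mOryCun1.1) named 701 rows that carry a LOC identifier. Counting error is small beside the spread, and low members such as SLC7A11 are limited by depth.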

Additional observations from a re-analysis of the deposited data

How the results depend on the processing

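With all 9 replicates edgeR called 1 member in FK against WT, 0 in FA against WT and 0 in FA against FK. Of 456 settings of single members, 376 kept direction and side of the threshold, 12 lost a call, 50 gained one and 18 reversed. In FK against WT the count was 2 with DESeq2, 2 with limma-voom, 3 with the 36 libraries as separate replicates, and 0 with only the 2 groups fitted, with library 1 of each set alone or with FK as replicate 3 alone. In FA against WT it was 2 with DESeq2, with only the 2 groups fitted or with FK as replicate 3 alone, 1 without a filter on low counts or with at least 1 CPM in 3 replicates, 4 with limma-voom and 7 with the 36 libraries. In FA against FK it was 3 with DESeq2, 5 with limma-voom and 7 with the 36 libraries. The 36 libraries share sets, so that setting treats dependent samples as independent. No share of all genes called is given for it, nor for DESeq2 and limma-voom in FK against WT. Those counts are therefore not set against a general rate. Leaving out each replicate in turn gave 0 to 5 calls in FK against WT, 0 to 2 in FA against WT and 0 to 8 in FA against FK. The highest count came without FK replicate 3 each time, where 34.9%, 1.60% and 34.5% of all genes were called. The counts of 5 and 8 include SLC7A11, which passes the filter there only through FK replicates 1 and 2. The DESeq2 counts of 2 in FK against WT and 3 in FA against FK also include SLC7A11, whose counts came nearly all from those replicates. The cause of these shifts was not tested.

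With FK as replicate 3 alone, and its spread taken from the other groups, the FK against WT changes turned to 0.55 for GCLC, 0.55 for GCLM, 0.22 for TXNRD1, -0.49 for SRXN1, -0.12 for HMOX1 and 0.63 for GSR, and TXNRD1 was 0.05 with library 1 of each set alone. Leaving out each replicate in turn, FK against WT ranged from -1.14 to 0.02 for GCLC, -0.78 to 0.12 for GCLM, -0.24 to 0.08 for TXNRD1, -0.30 to 0.70 for SRXN1 and -0.98 to 0.07 for GSR, and FA against FK from -0.22 to 0.78 for SRXN1. Deviations of same-numbered sets of different groups from their group means correlated at r from -0.087 to 0.099 (9 pairs, 0 over 0.1). Different-numbered sets ranged from -0.095 to 0.115. With 3 sets a group this cannot decide whether the numbers pair the sets, and the labels do not say. With the set number as a replicate block, 0 members were called in each comparison, and ME1 in FK against WT had an edgeR adjusted p of 0.0763. The share of promoters with an antioxidant response element was not run.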
